A study of Homo sapiens with 15 samples.

Results

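The genes described here are 5 metallothioneins (MT1E, MT1F, MT1G, MT1X and MT2A), the zinc-sensing transcription factor MTF1 and the zinc exporter SLC30A1. They were taken from the gene count table by symbol, 7 of 21519 genes, and were chosen by family and pathway after the change of MT1F between GEMIN5 and control libraries was known. The members' gene-level comparisons of GEMIN5 with control cells, and what is computed from the same change, are therefore given below as descriptions, with fold changes and standard errors and no p-value. The data are RNA-seq of polyadenylated RNA from HEK-293, an established human embryonic kidney cell line. RNA came from whole cytoplasmic lysates (Input) and from the heavy fractions 8 to 12 of 10 to 50% sucrose gradients (polysomes), after ribosomes had been arrested with cycloheximide. Control cells were untreated, and GEMIN5 cells had been transfected by Lipofectamine LTX with the plasmid pcDNA3Xpress-Gemin5 and harvested after 24 h. Input was sequenced from 4 control and 3 GEMIN5 samples, and polysomes from 4 of each. The controls are labelled untreated, with no mention of the reagent or an empty plasmid, so an effect of transfection and an effect of GEMIN5 cannot be told apart. The labels call the libraries independent biological samples but do not say whether cultures were separate, and the spread behind each p-value is that between these libraries, which may be technical.

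Metallothioneins are very small cytosolic proteins whose many cysteines bind zinc, copper and cadmium. When free zinc rises, MTF1 binds short metal response elements near the start sites of its target genes, chief among them the metallothioneins and SLC30A1. SLC30A1 moves zinc out through the plasma membrane, so that the metallothioneins and SLC30A1 buffer and remove the metal to which MTF1 responds. GEMIN5, the protein expressed from the plasmid, binds RNA, recognises small nuclear RNAs for the assembly of spliceosomal particles and also binds ribosomes.

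The metallothioneins are near-identical in sequence, which bears on how reads can be assigned. In the deposited GRCh38 coordinates, 4 of the metallothionein genes lay on the plus strand of chromosome 16: MT2A (ENSG00000125148) at 56608584 to 56609497, MT1E (ENSG00000169715) at 56625475 to 56627112, MT1F (ENSG00000198417) at 56657731 to 56660698 and MT1X (ENSG00000187193) at 56682470 to 56684196. MT1G (ENSG00000125144) lay among them on the minus strand at 56666730 to 56668065. Each of the 5 has a coding sequence of 186 nt in the GENCODE annotation of the same build, and any pair was 88.7% to 95.2% identical. MT2A, MT1X, MT1F and MT1G are shown from start to stop codon, with capitals at the bases that differ from MT2A, because they show how close abundant and nearly silent members are. The triplets tgc and tgt, which encode cysteine, recur throughout.
MT2A, coding exons within chr16:56608656-56609354, plus strand: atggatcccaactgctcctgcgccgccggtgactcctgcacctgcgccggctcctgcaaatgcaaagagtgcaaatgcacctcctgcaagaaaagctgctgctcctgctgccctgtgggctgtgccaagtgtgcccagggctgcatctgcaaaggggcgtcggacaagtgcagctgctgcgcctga
MT1X, coding exons within chr16:56682541-56684049, plus strand: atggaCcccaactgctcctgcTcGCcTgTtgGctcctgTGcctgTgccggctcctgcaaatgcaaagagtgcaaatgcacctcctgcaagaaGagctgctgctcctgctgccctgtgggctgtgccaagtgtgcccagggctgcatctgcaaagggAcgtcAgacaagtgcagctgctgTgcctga
MT1F, coding exons within chr16:56658059-56659164, plus strand: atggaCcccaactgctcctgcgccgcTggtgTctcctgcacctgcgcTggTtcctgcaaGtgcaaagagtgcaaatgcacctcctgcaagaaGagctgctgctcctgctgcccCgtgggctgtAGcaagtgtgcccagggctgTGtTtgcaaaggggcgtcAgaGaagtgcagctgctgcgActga
MT1G, coding exons within chr16:56666879-56667993, minus strand: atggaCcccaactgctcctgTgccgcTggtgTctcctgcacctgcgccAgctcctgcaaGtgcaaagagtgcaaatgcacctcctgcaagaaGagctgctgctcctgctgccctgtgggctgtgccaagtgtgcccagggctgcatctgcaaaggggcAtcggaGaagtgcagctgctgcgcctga
MT1X differed from MT2A at 14 bases, MT1F at 16 and MT1G at 9. The differences are unevenly placed. In MT1X most of them lie near the start, and MT1X and MT1G each keep a long later run without capitals. Over the whole mRNA no stretch of 100 nt of MT1E, MT1F, MT1G or MT2A occurred in a transcript of another gene. Stretches of 50 nt did recur, for 3.59% of those in MT1F, 4.88% in MT2A, 10.6% in MT1E and 14.3% in MT1G, all with other metallothionein genes or pseudogenes. The MT2A share is over its annotated transcript of 786 nt. That transcript is longer than the deposited gene less its introns, and the share within that gene was not counted. For the longest annotated coding transcript of MT1X, of 538 nt, 50.8% of 100-nt stretches were shared. They were shared with AC026461.1, an annotated transcript that overlaps MT1X on the same strand and has no row in the count table. That MT1X transcript differs from the one whose coding sequence is shown. Some 50-nt stretches of MT1F, MT1G and MT2A did occur in an MT1X transcript. Counts of single metallothioneins are therefore uncertain where reads were short, and their sum is given beside them.

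Metal response elements were searched by their core, as TGCACNC and TGCGCNC, on both strands of the 250 bases before each start site. Overlapping matches were counted separately. RefSeq promoter sequences on GRCh38.p14 were at hand for MT2A, MT1X, SLC30A1 and MTF1. The first 3 are shown with matches in capitals, each as read on the strand of its gene, because they carry the sequence through which MTF1 is known to act.
MT2A, chr16:56608334-56608583, plus strand: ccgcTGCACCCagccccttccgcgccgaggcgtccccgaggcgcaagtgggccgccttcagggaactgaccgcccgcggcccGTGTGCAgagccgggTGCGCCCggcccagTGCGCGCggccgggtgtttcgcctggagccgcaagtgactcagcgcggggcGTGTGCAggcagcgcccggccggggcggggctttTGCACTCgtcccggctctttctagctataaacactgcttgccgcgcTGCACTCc
MT1X, chr16:56682220-56682469, plus strand: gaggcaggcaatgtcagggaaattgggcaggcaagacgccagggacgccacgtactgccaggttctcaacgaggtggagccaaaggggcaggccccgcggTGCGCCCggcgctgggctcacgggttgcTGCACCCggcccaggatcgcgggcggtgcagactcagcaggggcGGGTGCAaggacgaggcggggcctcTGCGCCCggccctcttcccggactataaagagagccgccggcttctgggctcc
SLC30A1, chr1:211579162-211579411, minus strand: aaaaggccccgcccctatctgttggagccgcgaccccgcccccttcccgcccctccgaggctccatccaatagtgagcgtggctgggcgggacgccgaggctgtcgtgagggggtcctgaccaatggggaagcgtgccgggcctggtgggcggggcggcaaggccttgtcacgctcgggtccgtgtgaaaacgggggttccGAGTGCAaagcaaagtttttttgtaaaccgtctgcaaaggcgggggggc
The MT2A window held 7 matches, 5 on the gene's strand and 2 on the other. At least that many were present in 11 of 35116 promoters of the same length, or 0.0313%. The MT1X window held 4 matches, 3 of them on the gene's strand, a number reached by 0.37% of promoters. SLC30A1 had 1 match, which 24.8% of promoters had, and MTF1 had none in this window. A match is a description of the letters and no measurement of binding.

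Total counts were 11191417 to 18407933 per library. GEMIN5 was at 13.9 ± 1.70 CPM (the usual depth-scaled count, here also scaled for composition; SD, n = 4) in Input control and 1430 ± 112 (n = 3) in Input GEMIN5, and at 5.80 ± 1.26 and 925 ± 187 (n = 4 each) in the polysome groups, as labelled. Features of the libraries bear on the values below. In Input GEMIN5 the RNA composition was shifted: edgeR's trimmed mean of M-values (TMM), which sets the typical gene to no change, gave factors of 0.3544 to 0.4883 there, 0.9709 to 1.032 in Input control and 1.27 to 1.554 in polysomes. With library totals alone, the median gene in Input was at a log2 fold change of -1.29 instead of -0.01, so each Input change is given against the typical gene, and the value on library totals is added where it matters. Counts of 22 liver genes summed to 16 and 26 in Input controls 2 and 1, with 4 and 7 of the genes detected, but to 1656 and 1957 in Input controls 4 and 3 and to 1709 to 2357 in the polysome controls, with all 22 detected. They summed to 11 to 56 in the 7 GEMIN5 libraries, with 3 to 6 of 22 detected. Counts of 9 blood cell genes summed to 180 to 265 in the polysome controls and to 70 to 116 elsewhere. Of 9 genes typical of HEK-293, 9 were detected in 12 libraries and 8 in the 3 of Input GEMIN5.

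In untreated cells the metallothionein pool consisted almost wholly of MT2A, MT1X and MT1F. In Input controls 1 to 4, MT2A had 658, 1046, 833 and 693 raw counts, MT1X had 562, 921, 692 and 598, and MT1F had 108, 139, 115 and 101. In TMM-scaled CPM per kb of mRNA, MT1X was at 87.0 ± 8.38, MT2A at 69.5 ± 6.19, MT1F at 11.4 ± 0.604, SLC30A1 at 0.672 ± 0.0950 and MTF1 at 0.144 ± 0.0265 (SD, n = 4). The ranges of these 5 levels did not overlap between neighbours in that order. MT2A and MT1X thus stood far above the factor and the exporter on this scale, with MT1F between them. The order of MT1X and MT2A rests on annotated lengths of 538 and 786 nt. The deposited MT2A gene less its introns is shorter than 786 nt, so the values per kb of MT2A are too low. No order of MT1X and MT2A is read from them. Before division by length MT2A had the higher mean, at 54.6 ± 4.87 against 46.8 ± 4.51 CPM, with overlapping ranges. With the same lengths, of which that of MT2A is too long, MT1X had the highest mean per kb in the other groups too. The order is not read there either. MT1X was at 567 ± 56.1 in Input GEMIN5, 86.4 ± 18.6 in polysome control and 149 ± 39.4 in polysome GEMIN5. Its range there overlapped that of MT2A, at 465 ± 76.6, 53.7 ± 13.4 and 94.1 ± 24.3.

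The other metallothioneins were near the limit of counting. MT1E had 0, 0, 0 and 3 counts in the Input controls, 0 in each Input GEMIN5 library, 0, 0, 1 and 1 in the polysome controls and 0 in each polysome GEMIN5 library. MT1G had 3, 1, 2 and 0 counts in the Input controls, 8, 1 and 3 in Input GEMIN5, 1, 2, 1 and 1 in the polysome controls and 3, 1, 7 and 5 in polysome GEMIN5. The MT1G groups overlapped in both comparisons. A count of 0 allows up to 3 counts, or 0.135 to 0.491 CPM depending on the library, so low expression of these genes was not detectable at this depth. The table held 7 further metallothionein rows, of which MT1A had 2 counts in polysome control 2, MT1M 1 count in polysome control 3 and MT4 1 count in Input control 1, and MT1B, MT1H, MT1HL1 and MT3 had none in any library. MT1E and MT1G, with these 7 rows, fell under the filter on low counts, so 5 of the 7 members were tested.

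**Figure D1:**
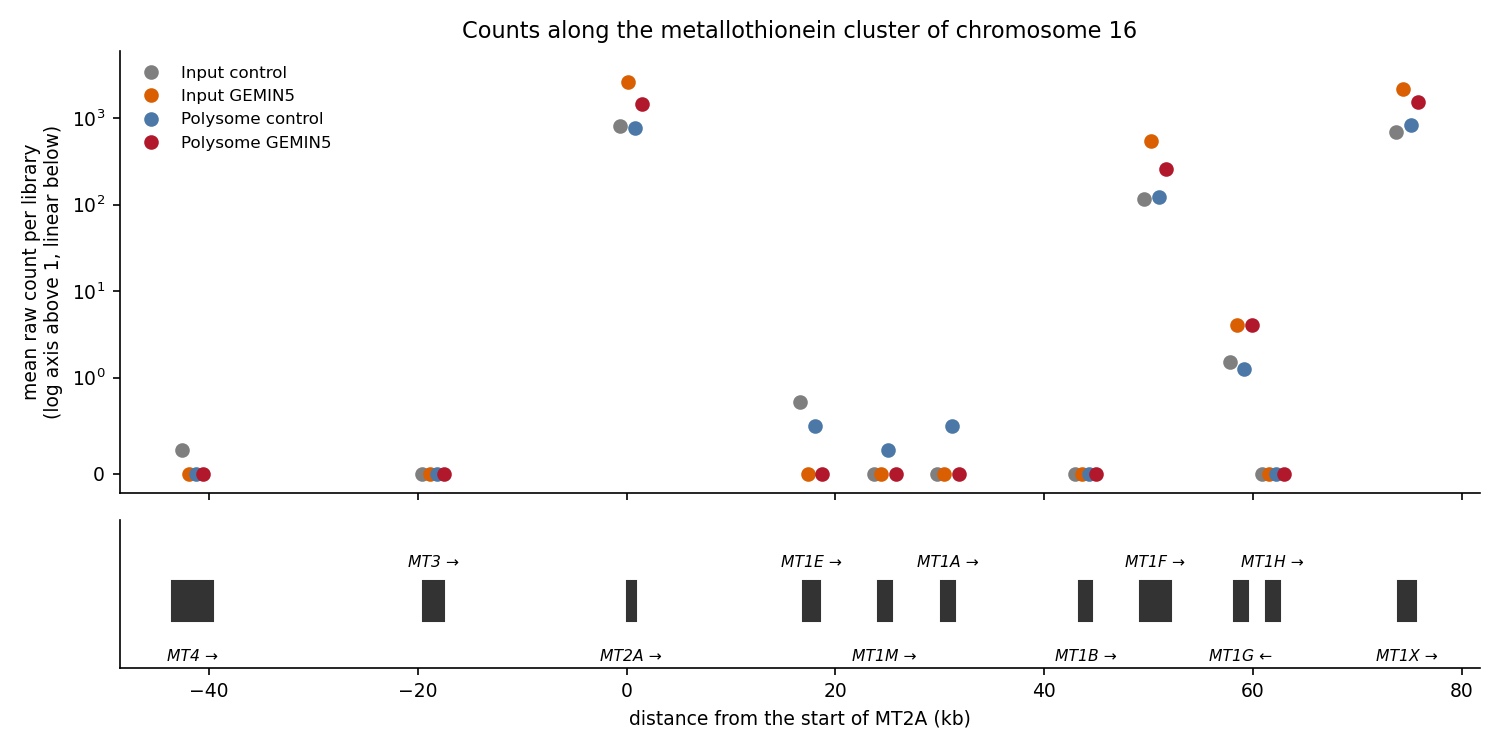
Mean raw count per library (y axis, log above 1 and linear below) of each metallothionein gene of the chromosome 16 cluster in the 4 groups (colours), against distance from the start of MT2A in kb (x axis); boxes below show gene positions and arrows their strand. MT2A, MT1F and MT1X carried nearly all counts, while MT1G had 0 to 8 and MT1E 0 to 3 counts per library and the rest up to 2.

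In Input, the 3 expressed metallothioneins were several-fold higher in GEMIN5 cells than in control cells, and their group ranges did not overlap, where 29.8% of all tested genes were higher without overlap. MT1F, the least abundant of them, had 586, 549 and 484 counts in the Input GEMIN5 libraries 1 to 3, where the controls had 101 to 139. Its level was 7.89 ± 0.417 CPM in control (n = 4) and 75.9 ± 12.7 CPM in GEMIN5 cells (n = 3), a log2 fold change of 3.26 (SE 0.19). MT2A had 2723, 2584 and 2469 counts and rose from 54.6 ± 4.87 to 365 ± 60.2 CPM, a log2 fold change of 2.74 (SE 0.20). MT1X had 2428, 1968 and 2154 counts and rose from 46.8 ± 4.51 to 305 ± 30.2 CPM, a log2 fold change of 2.702 (SE 0.19). The sum of all metallothionein rows went from 110 ± 9.30 to 747 ± 99.4 CPM, a log2 fold change of 2.77 (SE 0.20). On library totals alone the levels still did not overlap, at 7.80 and 30.3 CPM for MT1F, 54.0 and 145 for MT2A and 46.3 and 122 for MT1X, and the sum was higher by 1.46 on the log2 scale.

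Within the metallothionein pool, MT1F took a larger share in GEMIN5 cells, a comparison that needs no scaling between libraries. It made up 7.24 ± 0.638% of metallothionein counts in Input control (6.60 to 8.11%) and 10.1 ± 0.646% in Input GEMIN5 (9.47 to 10.8%). The share of MT2A was 49.9 ± 0.592% and 48.8 ± 1.67%, and that of MT1X 42.7 ± 0.734% and 41.0 ± 2.10%, with overlapping ranges for both. In polysomes MT1F made up 7.03 ± 0.553% (6.57 to 7.79%) in control and 8.01 ± 0.479% (7.56 to 8.51%) in GEMIN5 cells, and these ranges overlapped.

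The zinc exporter SLC30A1 (ENSG00000170385, chromosome 1, 211571568 to 211579161, minus strand) had 51, 69, 57 and 40 counts in Input control and 59, 39 and 40 in Input GEMIN5, so its raw counts overlapped. Scaled by TMM it was at 3.68 ± 0.520 and 6.31 ± 0.295 CPM without overlap, a log2 fold change of 0.78 (SE 0.21), but on library totals it was lower in GEMIN5 cells, at -0.50. Its direction in Input thus depended on the scaling. MTF1 (ENSG00000188786, chromosome 1, 37809574 to 37859592, minus strand) had 12, 22, 20 and 14 counts in Input control and 16, 4 and 10 in Input GEMIN5. Its levels of 1.15 ± 0.211 and 1.31 ± 0.585 CPM overlapped, at a log2 fold change of 0.23 (SE 0.36), which was -1.02 on library totals. Of the 5 members tested, 4 passed edgeR's threshold as higher in Input and none as lower, where 51.5% of all 12197 tested genes passed and 27.1% were higher. The choice of members used this comparison, so nothing is read from that count.

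**Figure D2:**
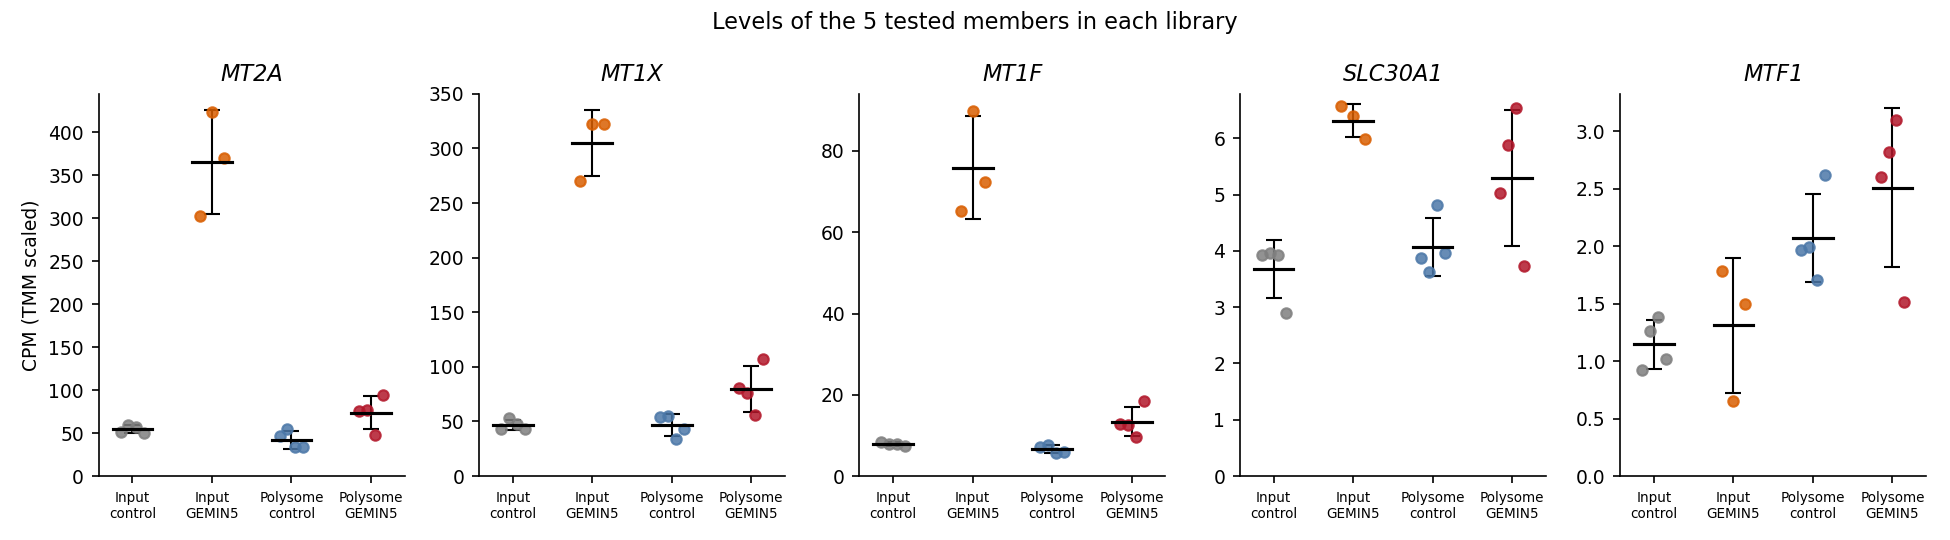
Level of the 5 tested members in each library, in CPM scaled by TMM (y axis from 0, its range differing between panels), by group (x axis); points are libraries, horizontal bars means and error bars 1 SD (n = 4, 3, 4 and 4). For MT2A, MT1X and MT1F all 3 Input GEMIN5 libraries lie above every other library, and for MTF1 the GEMIN5 and control ranges overlap in Input and in polysomes.

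Annotated mRNA length moved with the change in Input. Among tested genes with mRNAs up to 600 nt the median log2 fold change was 1.97 (88 genes), over 600 and up to 1000 nt it was 1.56 (380 genes), up to 2000 nt 0.41, up to 4000 nt -0.19 and above 4000 nt -0.09. The metallothionein mRNAs are short, at 538 nt for MT1X, 690 nt for MT1F and 786 nt for MT2A, while SLC30A1 has 5474 nt and MTF1 7972 nt. MT1F ranked 2 and MT2A 10 from the top among the 380 genes of 600 to 1000 nt, and MT1X ranked 6 among the 88 shorter ones. Against all 12197 tested genes these ranks were 10 for MT1F, 50 for MT2A and 56 for MT1X. The 3 metallothioneins were thus above the upper quartile of genes of like annotated length. The deposited MT2A gene less its introns is shorter than 786 nt and would fall in the class up to 600 nt. MT2A, at 2.74, was also above the upper quartile of that class, at 2.36. The part of mRNA length or of the composition shift in the change of the 3 genes was not tested. Against Input controls 1 and 2 alone, in which the liver genes were nearly at 0, the change of the metallothionein sum was 2.704 (SE 0.28), about as large as with all 4 controls.

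**Figure D3:**
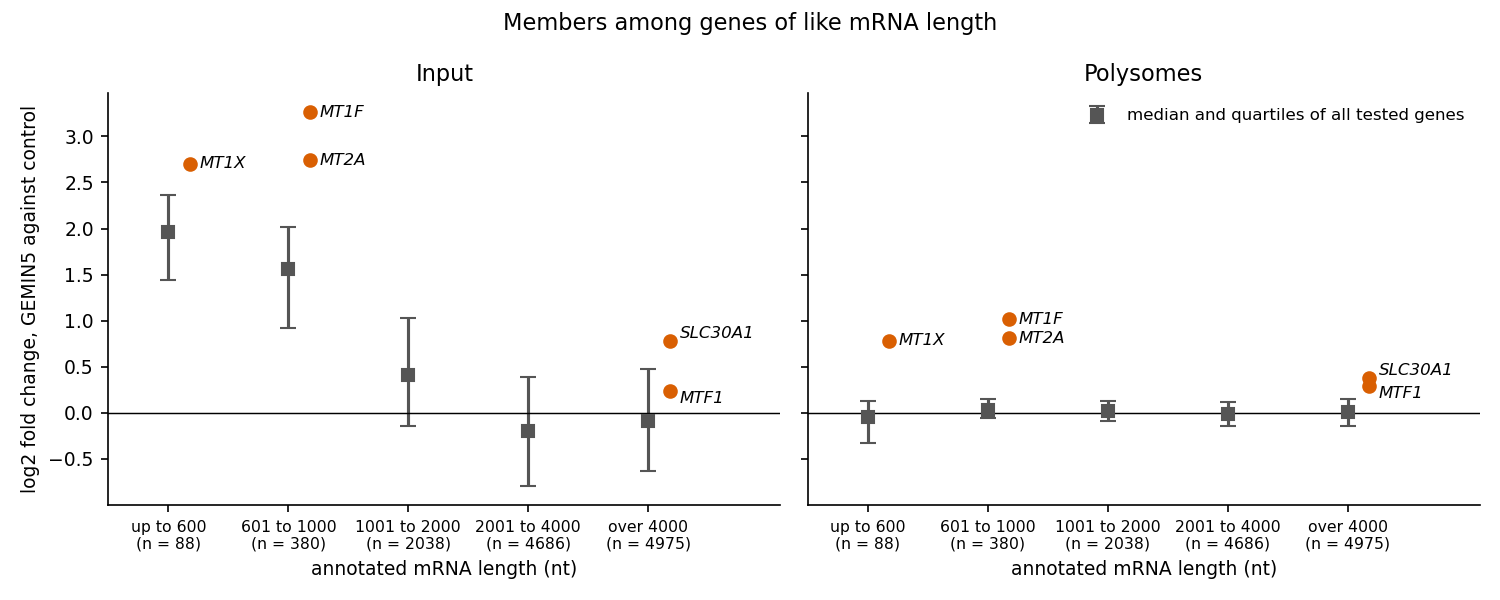
Log2 fold change of GEMIN5 against control cells (y axis) by class of annotated mRNA length in nt (x axis), in Input and in polysomes. Squares and bars are the median and quartiles of all tested genes of a class, circles the members. MT2A is placed by its annotated 786 nt, which is longer than its deposited gene less its introns. In Input the medians are 1.97 in the shortest and -0.09 in the longest class, with the lowest of -0.19 in the class before it; in polysomes all lie between -0.05 and 0.03, and the 3 metallothioneins lie above the upper quartile of their class in both.

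In polysomes the same 3 metallothioneins were also higher in GEMIN5 cells, by a smaller amount. MT1F had 114, 147, 127 and 96 counts in control and 227, 269, 207 and 339 in GEMIN5 cells, at 6.63 ± 1.01 and 13.4 ± 3.61 CPM (n = 4 each). MT1X had 854, 1044, 754 and 705 counts in control and 1423, 1618, 1191 and 1982 in GEMIN5 cells, at 46.5 ± 10.0 and 80.0 ± 21.2 CPM. MT2A had 739, 1044, 747 and 552 counts in control and 1348, 1634, 1027 and 1745 in GEMIN5 cells, at 42.2 ± 10.5 and 74.0 ± 19.1 CPM. The groups did not overlap for MT1F and MT1X, where 1.64% of all tested genes were higher without overlap. For MT2A, GEMIN5 library 3, at 48.3 CPM, lay below control library 2, at 54.8 CPM. The log2 fold changes were 1.01 (SE 0.17) for MT1F, 0.78 (SE 0.17) for MT1X, 0.81 (SE 0.19) for MT2A and 0.81 (SE 0.18) for the sum.

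Of the 5 members, MT1F alone passed edgeR's threshold in polysomes, where 0.402% of all tested genes passed and 0.0820% were higher. The choice of members used the change of MT1F, so nothing is read from that count, which also depended on the fit. It was 3 with DESeq2 and 0 with only the polysome libraries, and also 0 without polysome control 4 and 3 without polysome GEMIN5 library 3. The medians of short mRNAs were near 0 in polysomes, at -0.05 for mRNAs up to 600 nt and 0.03 from 600 to 1000 nt. MT1F ranked 5 and MT2A 7 among the 380 genes of the latter class and MT1X 3 among the 88 of the former. MT2A was placed there by its annotated 786 nt, which is too long. Its 0.81 was also above the upper quartile of the class up to 600 nt, at 0.13. Liver and blood cell genes were higher in all 4 polysome controls than in any polysome GEMIN5 library, the opposite direction, and their part in the metallothionein change was not tested.

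SLC30A1 in polysomes was at 4.07 ± 0.516 CPM in control and 5.29 ± 1.20 CPM in GEMIN5 cells, with 61, 69, 107 and 65 against 89, 125, 139 and 69 counts. GEMIN5 library 4, at 3.74 CPM, lay among the controls, and the log2 fold change was 0.38 (SE 0.18). MTF1 had 31, 38, 38 and 43 counts in control and 46, 60, 66 and 28 in GEMIN5 cells, at 2.07 ± 0.385 and 2.51 ± 0.693 CPM. The same GEMIN5 library was lowest, at 1.52 CPM, and the log2 fold change was 0.29 (SE 0.25). In that library the 3 metallothioneins were at their highest of the group.

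The GEMIN5 change in polysomes minus that in Input was taken from the interaction in edgeR's quasi-likelihood fit. It contains the Input change known when the genes were chosen, and it is given as a description. The log2 difference was -2.25 for MT1F (SE 0.25), -1.92 for MT1X (SE 0.26), -1.93 for MT2A (SE 0.27) and -1.96 for the sum. On library totals the same differences were smaller in size, at -0.95, -0.62, -0.62 and -0.65. These 3 of 5 members passed edgeR's threshold as lower, where 37.3% of all genes passed and 20.5% were lower, and nothing is read from that count. The median difference was -2.002 for all genes with mRNAs up to 600 nt and -1.48 for those of 600 to 1000 nt, so short mRNAs as a class had the same direction. In that ordering MT1X ranked 36 of 88 from the top, near the middle of its class, MT2A 289 and MT1F 337 of 380. MT2A was ranked by its annotated 786 nt, which is too long. Its -1.93 was near the median of -2.002 for mRNAs up to 600 nt, the class that its deposited gene would give.

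For SLC30A1 the difference of -0.40 (SE 0.28) did not pass, with a 95% interval of -0.98 to 0.19, and it turned to 0.88 on library totals. MTF1 had a difference of 0.06 (SE 0.44; 1.31 on library totals) with an interval of -0.87 to 0.98, which is too wide to exclude a change of the size seen for SLC30A1. Its sign changed in 5 of the fits that left out a library.

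The same libraries can be compared as polysomes against Input within each kind of cell, with p-values adjusted by Benjamini-Hochberg over all genes. In control cells none of the 3 metallothioneins passed: MT1X was at -0.01 (SE 0.18, adjusted p = 0.961), MT1F at -0.25 (SE 0.18, adjusted p = 0.265) and MT2A at -0.37 (SE 0.19, adjusted p = 0.118) in edgeR. These signs turned positive on library totals, at 0.49, 0.26 and 0.13. In GEMIN5 cells, where the Input libraries are those whose high level of MT1F was known, the values are again a description: the log2 difference of polysomes from Input was -2.50 for MT1F (SE 0.18), -2.30 for MT2A (SE 0.20) and -1.93 for MT1X (SE 0.19). On library totals these were -0.69, -0.49 and -0.13, and MT1X no longer passed edgeR's threshold. The class medians in GEMIN5 cells were -1.98 up to 600 nt and -1.68 from 600 to 1000 nt, against -0.01 and -0.23 in control cells.

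MTF1 was higher in polysomes than in Input in both kinds of cell, by 0.83 in control (SE 0.28, adjusted p = 0.0204) and 0.89 in GEMIN5 cells (SE 0.33, adjusted p = 0.0235) in edgeR. Tested genes with mRNAs over 4000 nt, the class of MTF1, had positive medians of 0.32 and 0.40 in these comparisons, and their part was not tested. On library totals MTF1 was at 1.35 in control and 2.67 in GEMIN5 cells. It rests on few reads. The call was lost in control without Input control 1 or 4 or polysome control 4 (adjusted p = 0.0594, 0.0538 and 0.0680 in edgeR) and in GEMIN5 cells without Input library 2 or polysome library 3 (adjusted p = 0.0584 and 0.0588). In control cells it was also lost with Input controls 1 and 2 alone (0.89, adjusted p = 0.0767 by edgeR). SLC30A1 did not pass in control (0.14, SE 0.19, adjusted p = 0.563) or in GEMIN5 cells (-0.25, SE 0.21, adjusted p = 0.285) in edgeR, and the latter turned to 1.55 on library totals. MTF1 was thus the 1 member of 5 that passed in control, where 43.2% of all genes did and 24.1% were higher. In GEMIN5 cells 4 of 5 passed, MTF1 as higher and the 3 metallothioneins as lower, where 67.6% of all genes did, 32.6% as higher and 35.0% as lower, and nothing is read from the metallothioneins' part of that count.

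**Figure D4:**
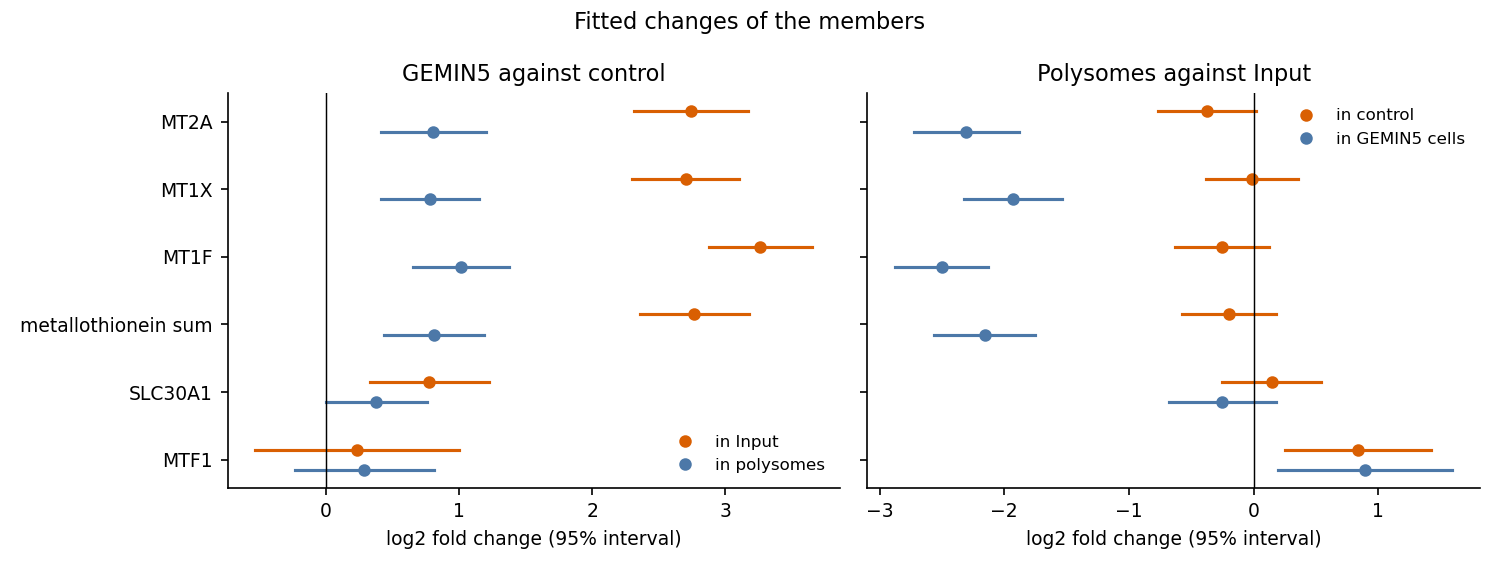
Log2 fold changes (x axis, points with 95% intervals from edgeR's fit) of the tested members and of the metallothionein sum (y axis), for GEMIN5 against control cells in Input and polysomes (left) and for polysomes against Input in control and GEMIN5 cells (right). The metallothioneins lie between 2.702 and 3.26 in Input and between 0.78 and 1.01 in polysomes, and in GEMIN5 cells they lie between -2.50 and -1.93 in polysomes against Input.

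The splicing data gave another count from the same libraries: reads that cross the first intron of a metallothionein, and so come from spliced RNA. The ratios below use the same TMM factors as the gene counts, so a like ratio is no independent check. MT2A had 375 to 641 such reads in Input control, 1376 to 1530 in Input GEMIN5, 347 to 608 in polysome control and 599 to 1077 in polysome GEMIN5. MT1X had 346 to 604, 1237 to 1382, 448 to 634 and 668 to 1196 in the same order. MT1F had 43 to 71, 246 to 316, 41 to 70 and 108 to 159. For each gene every Input GEMIN5 library had more such reads than any other library. In Input the ratio of the mean TMM-scaled levels, GEMIN5 over control, was 6.32 in spliced reads and 6.68 in gene counts for MT2A, 6.43 and 6.52 for MT1X and 11.1 and 9.62 for MT1F. In polysomes it was 1.76 and 1.75, 1.70 and 1.72, and 2.31 and 2.02.

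Unspliced reads were almost absent. Over all 15 libraries, reads across an end of the first intron numbered 1 for MT2A, 1 for MT1X and 0 for MT1F, and the highest retained share in any library was 0.11%. With so few such reads, differences in retention between groups were not testable. MT1E and MT1G had 1 spliced read each in all libraries together. Of 66 splicing events of the members, only those 3 first introns had at least 10 reads in every library, so splicing of MTF1 and SLC30A1 was not measurable, with at most 6 and 14 reads at any of their events.

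**Figure D5:**
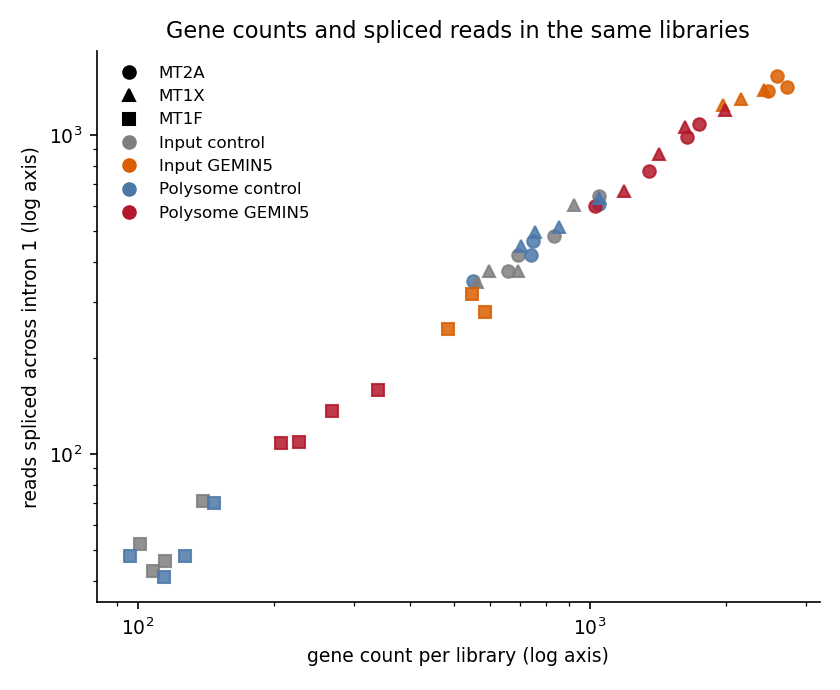
Reads spliced across the first intron (y axis, log) against the gene count (x axis, log) of MT2A, MT1X and MT1F (symbols) in each of the 15 libraries, coloured by group. In spliced reads the Input GEMIN5 libraries are the highest for each gene, with 246 to 316 for MT1F where control libraries have 41 to 71; in gene counts polysome GEMIN5 library 4 reaches 1982 for MT1X, above the 1968 of Input GEMIN5 library 2.

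With TMM scaling the other zinc carriers changed in both directions in Input. Of 7 tested zinc exporters of the SLC30 family besides SLC30A1, 1 rose and 4 fell in Input GEMIN5 cells by edgeR. Over all tested genes 27.1% passed as higher and 24.3% as lower. The exporters had a median of -0.50, against -0.01 over all genes. SLC30A4 was higher by 0.72 (adjusted p = 0.0383 by edgeR), while SLC30A9 fell by 1.44 (adjusted p = 2.80e-07), SLC30A7 by 1.21 (adjusted p = 0.0185) and SLC30A3 by 0.91 (adjusted p = 0.0492). SLC30A9 had 33.3 ± 3.0 CPM in Input control, 12.2 ± 2.11 in Input GEMIN5, 49.9 ± 6.92 in polysome control and 56.6 ± 4.86 in polysome GEMIN5, so its lower level was that of Input GEMIN5. Of 9 tested importers of the SLC39 family, which bring zinc into the cytosol, 2 rose and 3 fell in Input, with a median of 0.08. SLC39A4, known from intestinal zinc uptake, went from 79.5 ± 4.73 to 248 ± 59.8 CPM (1.64, adjusted p = 4.54e-07 by edgeR) and SLC39A13 changed by 1.02 (adjusted p = 5.01e-05). Their changes were smaller in polysomes, with log2 differences of -1.38 for SLC39A4 and -0.90 for SLC39A13. Both were named for their Input change, which the difference contains, so these values are a description. SLC39A10 fell by 2.17 (adjusted p = 0.00149 by edgeR), SLC39A7 by 1.06 (adjusted p = 2.09e-06) and SLC39A6 by 0.94 (adjusted p = 0.00193). In polysomes none of these 16 carriers passed in edgeR, where 0.402% of all tested genes did. The medians there were -0.06 for exporters and -0.04 for importers. The carriers were not counted on library totals, where the median gene in Input was at -1.29. That shift is larger than the rises of SLC30A4 (0.72) and SLC39A13 (1.02) and smaller than that of SLC39A4 (1.64). The direction of the smaller rises in Input may thus depend on the scaling.

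Lists for other metal and stress responses, none of which holds a member, were counted in the same way. Of 11 copper-handling genes, 5 rose and 1 fell in Input (median 0.08) and none passed in polysomes (median 0.01). Of 11 targets of the oxidant-responsive factor NRF2, 3 rose and 4 fell in Input (median 0.21) and 1 rose in polysomes (median -0.06), namely HMOX1, which degrades haem. Of 10 heat shock genes, 3 rose and 2 fell in Input (median -0.17) and 1 rose in polysomes (median -0.18), namely HSPA6. Of 8 glucocorticoid targets, 1 rose and 4 fell in Input (median -0.77) and none passed in polysomes (median -0.05). With TMM each list held members changed in both directions in Input, where 27.1% of all genes were higher and 24.3% lower. In polysomes 0.402% of all tested genes passed and 0.0820% were higher. These lists were not counted on library totals.

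The genes whose pattern over the 15 libraries was most like that of a member were ranked by the root mean square difference of log2 CPM centred on each gene's mean, among 7836 genes other than metallothioneins with at least 5 CPM on average. For MT2A they were SELENOM (0.245), RBIS (0.246), APOC1 (0.252), TMEM258 (0.255) and NUPR1 (0.259), and MT2A was nearer to MT1X (0.208) and MT1F (0.214) than to any of them. For MT1F they were SELENOM (0.333), NUPR1 (0.334), COPS9 (0.357), RBIS (0.362) and APOC1 (0.370), while MT1F and MT1X were 0.285 apart. By construction these neighbours had like changes, with log2 fold changes of 2.45 to 2.93 in Input. In polysomes NUPR1, a small stress-responsive nuclear protein gene, was at 0.88, and the other 5 were at 0.13 to 0.25. For SLC30A1 the nearest were ABHD18 (0.178), ZNF638 (0.205), ZNF254 (0.209), XRCC2 (0.212) and UGGT1 (0.214).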

How the data were processed

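The authors deposited raw whole-number counts per gene for 21519 Ensembl genes in 15 libraries. STAR 2.7.10a and featureCounts, with GRCh38, were used per the submitters' processing notes. The version of featureCounts, its use of strand and its handling of shared reads were not stated there. Gene length as deposited equals the whole gene span in all 21519 rows. For splicing the authors deposited a percent spliced in for each event and library, with a text column of the unit other that holds the read numbers behind each percent, laid out like vast-tools output on hg38, per the file headers. Symbols came from the GENCODE annotation of the same build (21494 matched), mRNA length from the longest protein-coding transcript (21291 matched) and promoters from RefSeq.

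Counts were filtered with filterByExpr (12197 genes kept), scaled by TMM and fitted once over all 15 libraries by group in edgeR, whose quasi-likelihood test was used (edgeR 4.0.16, limma 3.58.1, R 4.3.3), with Benjamini-Hochberg adjustment over all 12197 genes and a threshold of 0.05. CPM printed with an SD are TMM-scaled; the SE is the log2 fold change divided by the square root of F. The metallothionein sum replaced all 12 metallothionein rows by their total in a second fit. Intron reads were summed in Python 3.11.15 for introns with at least 10 reads; exact permutation tests of retention (SciPy 1.17.1) could not have reached the threshold, with at most 1 library above 0 in a comparison, and are not reported. A count of 0 was taken to allow up to 3 counts in that library; PCR copies are not independent molecules, so floors cover counting error only. Log2 CPM for pattern distances used a prior count of 2. The test was checked on simulated counts. No pair of libraries agreed within sampling noise.

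The genes and lists were chosen with earlier results of these data known. Named besides the members were every metallothionein row with a count, up to 3 called zinc exporters and importers per direction, 5 nearest genes for MT1F, MT2A and SLC30A1, and GEMIN5; HMOX1 and HSPA6 were named after their values were seen. Alternatives were library totals, RLE scaling, DESeq2 1.42.0, no filter, a replicate block, only the groups compared, Input controls 1 and 2 alone, summed metallothionein rows and leaving out each library.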

Additional observations from a re-analysis of the deposited data

Results flagged for a closer look

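SLC30A1 was at 2.90 CPM in Input control 4, far from the other 3 libraries of that group (3.93 to 3.96 CPM). The gap to the nearest was 0.975 of the group's range, above the critical value of 0.829 for 4 samples. Of 15 groups tested this way, chance alone exceeds that value in about 1 in 20.

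The GEMIN5 effect in polysomes minus that in Input was -2.25 for MT1F, -1.92 for MT1X, -1.93 for MT2A and -1.96 for the metallothionein sum, by the interaction in edgeR's quasi-likelihood fit. The interaction passed edgeR's threshold for each, but it contains the Input change that prompted the choice of genes, so these values are a description. Both effects were above 0 for each of the 3 genes and the sum, and the polysome effect was the smaller.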

How the results depend on the processing

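Of 30 member and sum values over the 5 comparisons, those of GEMIN5 against control were judged by size and the others by direction and call, and all 30 held under DESeq2, RLE scaling and the replicate block. Replicate numbers did not pair the libraries (correlations of same-numbered deviations from -0.562 to 0.492), and the block gave a metallothionein sum in Input of 2.79.

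On library totals, 9875 genes passed in Input (6280 with TMM) and the sum was 1.46; SLC30A1 reversed to -0.50 there, to 0.88 in the difference and to 1.55 for polysomes against Input in GEMIN5 cells. The difference then called 5 members and 8799 genes (3 and 4553 with TMM), polysomes against Input in control called 3 members (1 with TMM), and there the sum reversed to 0.31, MT1F to 0.26, MT1X to 0.49 and MT2A to 0.13. Without the filter MT1X reversed to 0.0034 in that comparison. Each of these settings changed nothing but the scaling or the filter.

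Members called in polysomes (1) became 3 on library totals, with DESeq2 and without the filter, and 0 with only the 2 groups; the genes called (49) became 87 with DESeq2. With Input controls 1 and 2 only, 0 members passed for polysomes against Input in control.

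Leaving out single libraries gave 0 to 3 members and 9 to 90 genes in polysomes (9 without polysome GEMIN5 library 2, 90 without polysome control 1, 86 without Input control 1 or 2, 24, 26 and 16 without polysome control 2, 3 or 4, and 12, 17 and 31 without polysome GEMIN5 library 1, 3 or 4). It gave 0 to 2 members for polysomes against Input in control, and an Input sum of 2.44 to 2.87, lowest without Input GEMIN5 library 2, where SLC30A1 was at 0.53 and no longer passed edgeR's threshold. MTF1 ranged from -0.0658 to 0.37 in the difference, and MT1X from -0.10 to 0.11 for polysomes against Input in control. Low counts limit MTF1 (4 to 66), SLC30A1 (39 to 139), MT1E and MT1G.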
